A study of Mus musculus with 4 samples.

Results

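The integrins and the proteins that couple them to the actin cytoskeleton were described in open chromatin of mouse lung tumours. The group held 34 genes, listed by symbol and proposed with earlier results of these data known. They were 18 integrin alpha subunits, 8 beta subunits, the 3 kindlins, the 2 talins and the 3 core members of the ILK complex. All 34 were found among 21887 protein-coding genes with a position in the RefSeq table for GRCm38.p6, the assembly of mm10, and all lie on autosomes. ATAC-seq, which maps chromatin that a transposase can reach, was run on lung tumours of 4 mice of the strain labelled C57B6J, all aged 55 weeks. The KrasLA1;Dicer1S2D group, called Dicer1S2D from here on, had 2 mice of the genotype KrasLA1/+;Dicer1S2D/+, and the KrasLA1 group had 2 mice of the genotype KrasLA1/+. Both groups thus carried 1 copy of KrasLA1, a latent oncogenic allele that becomes active through spontaneous recombination in the body, so tumours are not tied to one promoter or Cre driver. The Dicer1S2D allele encodes a form of the microRNA-processing enzyme Dicer in which serines are replaced by aspartate to mimic phosphorylation. Replicate 1 was female and replicate 2 was male in each group, and 40 to 50 mg of tumour was used per mouse. The sources used here do not say if the tissue of a mouse came from a single tumour.

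Integrins are receptors of an alpha and a beta subunit that bind extracellular matrix or ligands on other cells. Talins and kindlins bind the cytoplasmic tail of the beta subunit and switch the receptor to its active form, and the complex of ILK, alpha-parvin and PINCH links it to actin. In the lung, alveolar epithelium holds its basement membrane through laminin-binding integrins, and the alpha v integrins with beta 6 or beta 8 release active TGF-beta from its latent complex.

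The deposited values were intervals called as peaks in each library, with no read count, height or score, so a gene was measured by which open regions were called and how wide they were. Peaks that overlapped among the 4 libraries formed 1 merged region, and a region was counted for a gene when it touched the gene body or its flanks of 10 kb. The word gained stands for a region with a peak in both Dicer1S2D libraries and none in KrasLA1, and lost for the opposite pattern. The libraries held 50282 and 34767 peaks in Dicer1S2D tumours, against 41621 and 44654 peaks in KrasLA1 tumours. The read depth behind them is unknown, and Dicer1S2D replicate 2 had the shortest list. Of the markers of lung epithelium, 9 of 9 loci had a peak in every library, with 39 and 30 peaks in Dicer1S2D tumours and 33 and 38 peaks in KrasLA1 tumours. The summed peaks at 9 leukocyte loci were 21 and 16 in Dicer1S2D tumours and 16 and 23 in KrasLA1 tumours, with Cd3e at 0 throughout. At 5 fibroblast and smooth muscle loci they were 10 and 5 in Dicer1S2D tumours and 10 and 7 in KrasLA1 tumours. At 4 endothelial loci, of which Cdh5 and Kdr were at 0, they were 10 and 8 in Dicer1S2D tumours and 10 and 12 in KrasLA1 tumours. At 4 platelet loci they were 8 and 6 in Dicer1S2D tumours and 7 and 7 in KrasLA1 tumours. None of these loci had a gained region. A lost one was found at 2 epithelial, 1 leukocyte, 1 fibroblast and smooth muscle, 1 endothelial and 1 platelet locus, against 4.87% of all genes. That share is not matched for the number of regions. The loci with a lost region had 3 to 8 regions each, against a median of 3 over all genes with a region. Peaks covered fewer bases in both Dicer1S2D tumours than in both KrasLA1 tumours at 2, 2, 1, 1 and 3 loci, in the same order. That held for 27.7% of all genes, and 1 platelet locus went the other way. In these bulk tumours, fewer cells of a type and less open chromatin per cell cannot be told apart, and the part of cell makeup in the results was not tested.

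Open chromatin gained in Dicer1S2D tumours was seen at 2 of the 34 genes, Fermt1, which encodes kindlin-1, the kindlin of epithelia, and Itgb5, which encodes the beta 5 subunit that pairs with alpha v to bind vitronectin. Each had 2 gained regions, and those of Fermt1 included its promoter. Among all 15882 protein-coding genes with a region, 1.78% had a gained region and 0.0504%, or 8 genes, had 2 or more. Neither share is matched for the number of regions, which was 5 at Fermt1 and 12 at Itgb5. Tln2, which encodes talin 2, was the single member with a lost region, where 4.87% of all genes had one. By region, 4 of 207 regions at these genes were gained and 1 was lost, against 0.596% and 1.42% of 60713 autosomal regions. The other 31 genes had neither. These are patterns of calls in 2 against 2 libraries, a design in which no exact two-sided permutation test can go below p = 0.33. With 1 library left out, the rule asks for fewer libraries and more genes meet it: 6 genes gained and 13 lost without Dicer1S2D replicate 1, 18 and 3 without Dicer1S2D replicate 2, 3 and 13 without KrasLA1 replicate 1, and 5 and 8 without KrasLA1 replicate 2. Fermt1 and Itgb5 were among the gained genes in each of these 4 cases, and Tln2 was among the lost genes in each. Under that weaker rule a gene can stand on both sides: Itgb5 was also among the lost genes without Dicer1S2D replicate 2 or either KrasLA1 library, Tln2 among the gained genes without either replicate 2, and Fermt1 among the lost genes without KrasLA1 replicate 2.

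**Figure D1:**
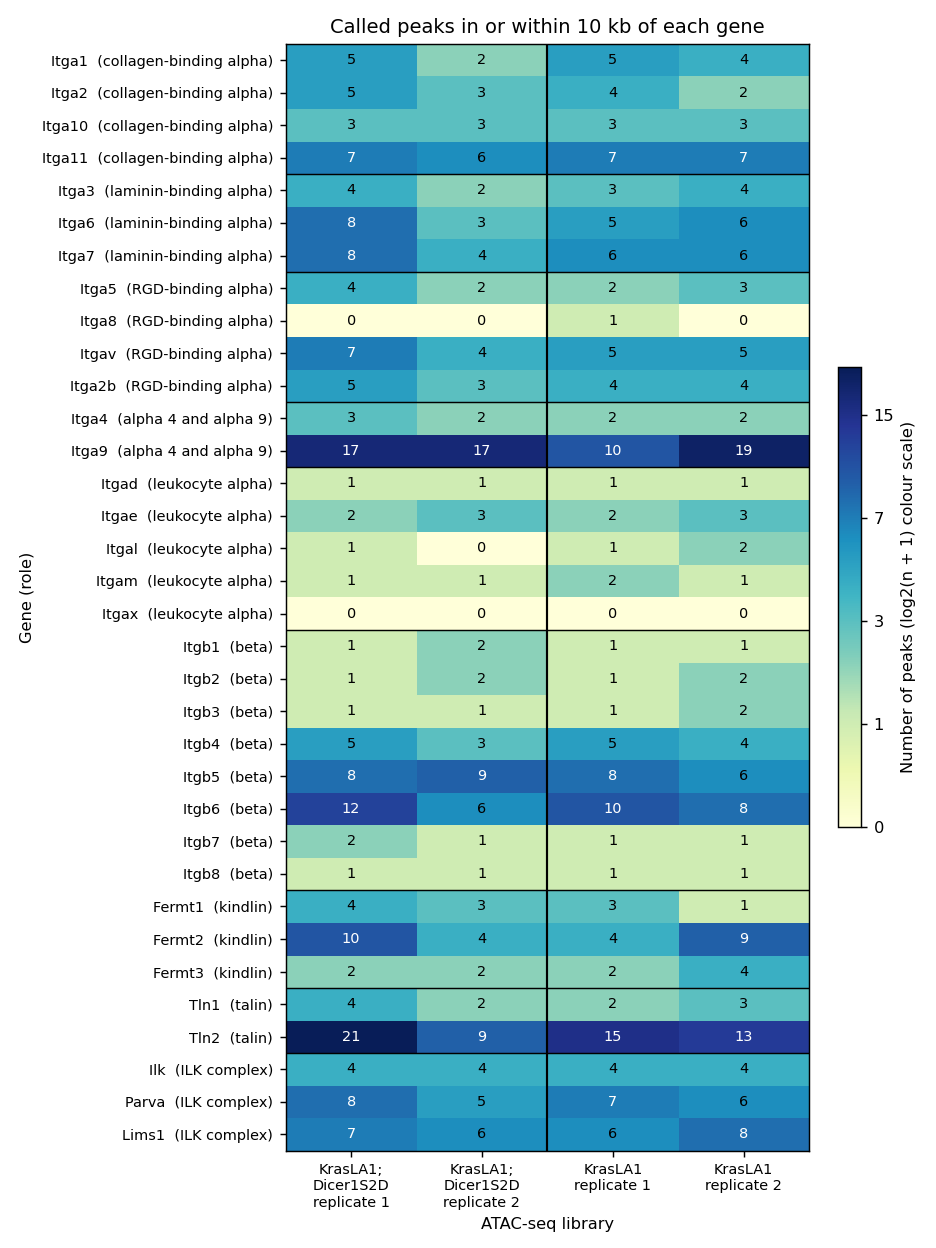
Number of called peaks in or within 10 kb of each of the 34 genes (rows, grouped by role) in each of the 4 libraries (columns, the 2 Dicer1S2D libraries on the left). Colour gives the number on a log2(n + 1) scale, and each cell prints the number. Tln2 and Itga9 hold the most peaks and Itgax holds none.

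The 3 kindlin genes showed 3 patterns of promoter calls. Their RefSeq promoter windows, 250 bases before to 50 bases after the annotated start on GRCm38.p6, are shown because that of Fermt1 was open in both Dicer1S2D tumours alone, that of Fermt2 in all 4 tumours and that of Fermt3 in a single KrasLA1 tumour. All 3 genes lie on the minus strand, and the sequences read 5′ to 3′ along the gene. Capitals mark matches on either strand to 6 motifs, and here they are the letters GGGCGG or CCGCCC of an SP1 site or TGTGGT of a RUNX site.
Fermt1, chr2:132945987-132946286: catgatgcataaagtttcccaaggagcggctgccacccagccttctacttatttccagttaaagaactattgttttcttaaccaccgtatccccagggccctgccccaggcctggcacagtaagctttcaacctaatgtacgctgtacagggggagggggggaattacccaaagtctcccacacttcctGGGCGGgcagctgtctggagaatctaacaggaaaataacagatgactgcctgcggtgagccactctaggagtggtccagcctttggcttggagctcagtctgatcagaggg
Fermt2, chr14:45530016-45530315: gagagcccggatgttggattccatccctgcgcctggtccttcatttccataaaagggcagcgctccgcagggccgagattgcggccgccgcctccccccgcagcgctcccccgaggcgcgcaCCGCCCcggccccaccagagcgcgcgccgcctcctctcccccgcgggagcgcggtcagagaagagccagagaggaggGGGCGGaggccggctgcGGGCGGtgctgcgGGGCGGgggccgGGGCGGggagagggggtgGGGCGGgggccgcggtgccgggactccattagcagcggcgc
Fermt3, chr19:7019420-7019719: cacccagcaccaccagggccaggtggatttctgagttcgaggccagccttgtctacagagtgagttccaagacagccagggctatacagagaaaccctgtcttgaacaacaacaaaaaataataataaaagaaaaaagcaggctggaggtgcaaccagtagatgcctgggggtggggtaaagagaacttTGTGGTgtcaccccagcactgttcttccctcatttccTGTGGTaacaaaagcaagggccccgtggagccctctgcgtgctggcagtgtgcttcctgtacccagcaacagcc
The Fermt1 window had a GC content of 53.0% and a ratio of observed to expected CpG of 0.237, against medians of 52.7% and 0.383 over 32817 mouse windows, and 1 SP1 match, which 35.6% of windows hold. The Fermt2 window was richer, with 76.7% GC, a CpG ratio of 0.844 and 6 SP1 matches. The Fermt3 window had 52.3% GC, a CpG ratio of 0.146 and 2 RUNX matches, and 16.8% of all windows hold a RUNX match. None of the 3 windows held the letters of AP-1 (TGANTCA, in 7.81% of windows), TEAD (GGAATG, 14.7%), ETS (CCGGAA, 14.9%) or a TATA box (TATAAA, 13.6%). The E-box letters CANNTG, in 72.3% of windows, were searched but not capitalised. A match describes the letters and does not show that a factor binds.

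The promoter of Fermt1 was called open in both Dicer1S2D tumours and in neither KrasLA1 tumour. Its region, chr2:132945064-132946152, spans the start site at base 132946036 and extends mostly into the gene. The peak there was 1089 and 786 bp wide in Dicer1S2D tumours, against 0 and 0 bp in KrasLA1 tumours. Within the printed window the peaks covered 166 and 158 of 300 bases in Dicer1S2D tumours, against 0 and 0 bases in KrasLA1 tumours. Of 20085 promoter windows of protein-coding genes, 18, or 0.0896%, had this pattern, and 100, or 0.498%, had the reverse. The same region also overlaps the promoter window of Gm14102. Kindlin-1 is known for anchoring basal keratinocytes and intestinal epithelium through beta 1 integrins.

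A second gained region of Fermt1, chr2:132938913-132939510, was centred 6824.5 bp into the gene. It was 598 and 276 bp wide in Dicer1S2D tumours and had no peak in either KrasLA1 tumour. A further region inside the gene, chr2:132923433-132924108, was open in all 4 tumours, with peak widths of 676 and 588 bp in Dicer1S2D tumours and 312 and 258 bp in KrasLA1 tumours. The widths of that shared region did not overlap between groups. With each library centred on its median width, the log2 difference was 1.32 ± 0.26 (limma's moderated SE, n = 2 each). That SE draws on the spread of all shared regions. Without centring the log2 difference was 1.15. The centred difference did not pass limma's test across all shared regions (Benjamini-Hochberg adjusted p = 0.999). The remaining 2 regions lay past the far end of the gene, 1 with 197 and 0 bp in Dicer1S2D tumours and 188 and 0 bp in KrasLA1 tumours, and 1 with 213 bp in KrasLA1 replicate 1 alone. Over the gene and its 10 kb margins, peaks covered 2560 and 1650 bp in Dicer1S2D tumours, against 713 and 258 bp in KrasLA1 tumours. Fermt1 was the single member whose covered bases were higher in both Dicer1S2D tumours than in both KrasLA1 tumours, where 1.98% of genes were, a pattern for which the exact two-sided permutation test gives p = 0.33. The difference of the means was 1619.5 bp, and 937.5 bp within 2 kb of gene ends. Under all 11 other processing choices, Fermt1 had 1 or 2 gained regions. Of the 1225 genes with 5 regions, as Fermt1 has, 3.02% had a gained region.

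**Figure D2:**
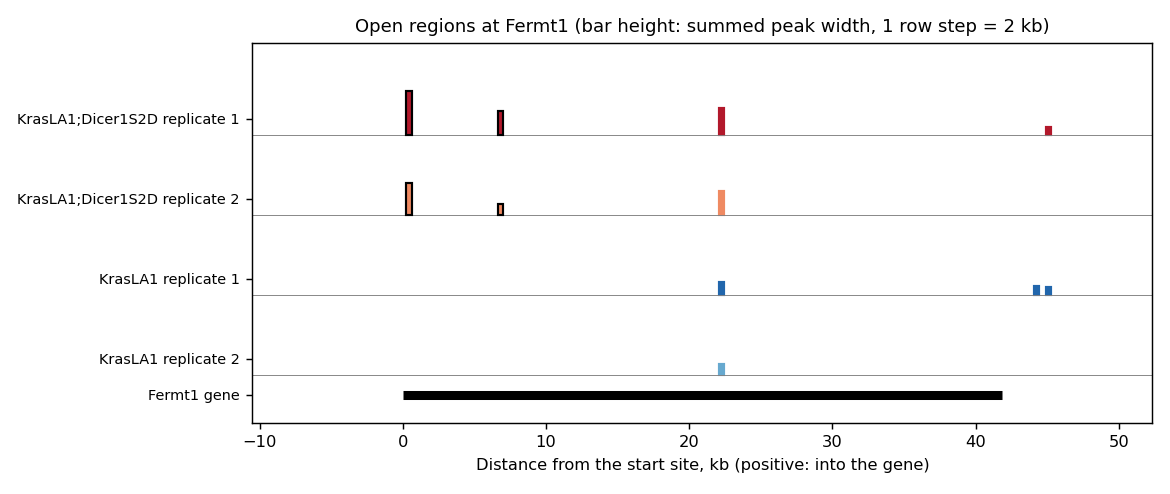
Open regions of Fermt1 in the 4 tumours, with the 2 Dicer1S2D libraries in the upper rows. The x axis gives the distance of the region's centre from the start site in kb, bar height the summed peak width (1 row step is 2 kb), and black outlines mark the 2 gained regions, at the start site and 6824.5 bp into the gene. The region in the middle of the gene is open in all 4 tumours, with widths of 676 and 588 bp in Dicer1S2D tumours and 312 and 258 bp in KrasLA1 tumours.

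The other kindlins had no gained or lost region when all peaks were used. Fermt3 had a lost one with the widest 75% of peaks, with equal numbers of peaks and with a minimum width of 200 bp. Only 1 of its regions had peaks in both KrasLA1 tumours but not in both Dicer1S2D tumours. That region lies 2478 bp outside the gene, over the promoter windows of Nudt22 and Trpt1. Its peaks were 196 and 0 bp wide in Dicer1S2D tumours and 400 and 372 bp wide in KrasLA1 tumours. Fermt2 had a lost one with the widest 75% of peaks, and both a gained and a lost one with equal numbers of peaks. The Fermt3 promoter, of the kindlin of blood cells, was open in KrasLA1 replicate 2 alone, where 143 of the 300 bases were covered, and its covered bases over the locus were 924 and 1034 in Dicer1S2D tumours against 867 and 1537 in KrasLA1 tumours. These groups overlap. Of its 4 regions, 1 was open in all 4 tumours, and it lies over the promoter window of Dnajc4. For Fermt2, the broadly expressed kindlin, named here as the comparison after its values were seen, the promoter window was open in every tumour, with 282 and 246 bases covered in Dicer1S2D tumours and 271 and 300 bases in KrasLA1 tumours. The Fermt2 locus had 10 and 4 peaks in Dicer1S2D tumours and 4 and 9 peaks in KrasLA1 tumours, so it varied more within the groups than between them.

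Beta subunits gave the other gained regions. Itgb5 had 12 regions, of which 4 were open in every tumour. Its promoter is printed as the contrast to that of Fermt1, because the gene gained regions while its promoter was open throughout. The window lies on the plus strand.
Itgb5, chr16:33829415-33829714: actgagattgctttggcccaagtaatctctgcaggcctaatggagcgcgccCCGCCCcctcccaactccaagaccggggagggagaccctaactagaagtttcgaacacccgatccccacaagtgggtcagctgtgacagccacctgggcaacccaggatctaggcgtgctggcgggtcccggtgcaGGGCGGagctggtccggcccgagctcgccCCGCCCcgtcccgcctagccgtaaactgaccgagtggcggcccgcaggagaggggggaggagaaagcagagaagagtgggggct
It had 65.7% GC, a CpG ratio of 0.619 and 3 SP1 matches, in capitals, and all 300 bases were covered in all 4 tumours. The promoter region was 1174 and 1133 bp wide in Dicer1S2D tumours and 1180 and 1185 bp wide in KrasLA1 tumours. Both Dicer1S2D values were the lower ones, by less than the spread between the Dicer1S2D mice.

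Both gained regions of Itgb5 lie inside the gene and far from its start. The nearer, chr16:33860066-33860314, was 249 and 213 bp wide in Dicer1S2D tumours and had no peak in either KrasLA1 tumour. The other, chr16:33922156-33922504, was 349 and 198 bp wide in Dicer1S2D tumours and likewise had no peak in KrasLA1 tumours. They are centred 30525 and 92665 bp from the start site and are narrower than the median region at these genes, 449 bp. The number of peaks at the locus was 8 and 9 in Dicer1S2D tumours, against 8 and 6 in KrasLA1 tumours. Covered bases were 4311 and 3673 bp in Dicer1S2D tumours and 3994 and 3848 bp in KrasLA1 tumours, so the groups overlapped in total open length. Among the 113 genes with 12 regions, 7.08% had a gained region. With a minimum width of 200 bp, and likewise with equal numbers of peaks, Itgb5 had 1 gained region. When only the widest 75% of the peaks of each library were kept, Itgb5 had no gained region and was among the genes with a lost one, and it had neither when the count was limited to 2 kb around gene ends.

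**Figure D3:**
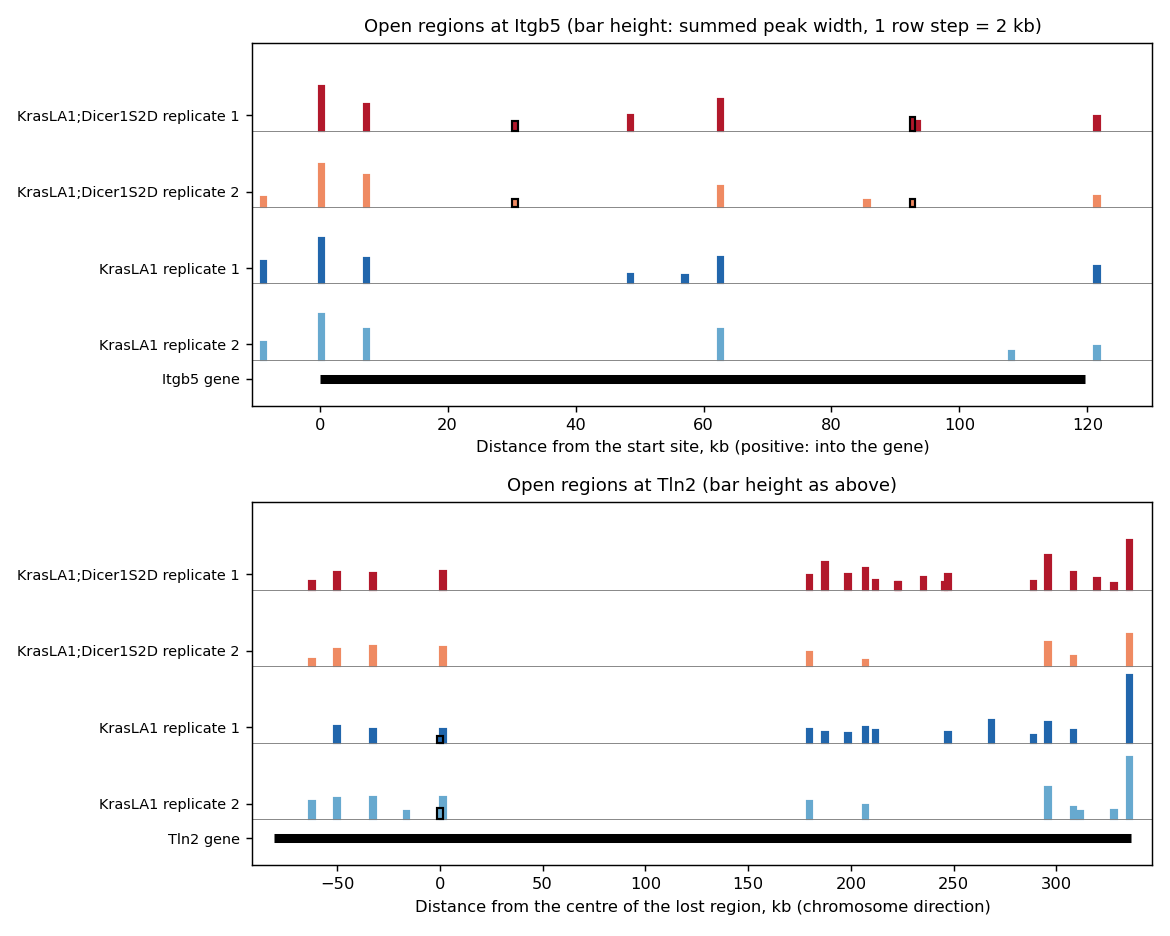
Open regions of Itgb5 (top) and Tln2 (bottom) in the 4 tumours, with the 2 Dicer1S2D libraries in the upper rows of each panel. The x axis gives kb from the start site of Itgb5 or from the centre of the lost region of Tln2, bar height the summed peak width (1 row step is 2 kb), and black outlines mark the 2 gained regions of Itgb5 and the lost region of Tln2. The outlined bars are 349 bp or less and stand among taller bars that are open in all 4 tumours.

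The other 7 beta subunits had no gained or lost region. Itgb6, the epithelial partner of alpha v that activates TGF-beta, had 13 regions, with 12 and 6 peaks in Dicer1S2D tumours and 10 and 8 peaks in KrasLA1 tumours. Its covered bases were 4715 and 2801 bp in Dicer1S2D tumours, against 4326 and 4231 bp in KrasLA1 tumours, and the KrasLA1 values lie between those of the Dicer1S2D mice. Of its 2 promoter windows, the one at the gene's outer start had no peak in any library, and the one at an internal start had 184 and 136 bases covered in Dicer1S2D tumours and 148 and 159 bases in KrasLA1 tumours. Itgb4, the laminin-binding partner of alpha 6 in hemidesmosomes, had covered bases of 2382 and 1747 bp in Dicer1S2D tumours, against 2575 and 2574 bp in KrasLA1 tumours. Both Dicer1S2D values were the lower ones, with a difference of -510 bp between the means, which was -827.5 bp without Dicer1S2D replicate 1, -192.5 bp without Dicer1S2D replicate 2 and -161 bp within 2 kb of gene ends. Its 6 regions included 1 at the promoter window of Galk1. Itgb7, the leukocyte subunit that pairs with alpha 4 and alpha E, had 464 and 545 bp in Dicer1S2D tumours and 649 and 649 bp in KrasLA1 tumours. The remaining 4 beta subunits, Itgb1, Itgb2, Itgb3 and Itgb8, had 1 or 2 peaks in every library, and Itgb2, the beta subunit shared by the leukocyte integrins, had no region open in all 4 tumours.

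The 2 talin genes differed in their number of regions. Tln2, the talin known from heart, muscle and brain, had 24 regions over 416961 bp, the most of the family, and Tln1, the talin found in nearly all cells, had 4. The lost region of Tln2, chr9:67297612-67297904, had no peak in either Dicer1S2D tumour and peaks of 169 and 287 bp in the KrasLA1 tumours. Among the 115 genes with 20 to 28 regions, 34.8% had a lost region. A neighbouring region, chr9:67299020-67299633, was open in all 4 tumours, with 489 and 505 bp in Dicer1S2D tumours and 366 and 577 bp in KrasLA1 tumours. Peaks at the locus numbered 21 and 9 in Dicer1S2D tumours, against 15 and 13 in KrasLA1 tumours, and covered bases were 8785 and 3984 bp against 6632 and 6700 bp. Both KrasLA1 tumours lay between the Dicer1S2D tumours. The lost call was absent with the widest 75% of peaks, with equal numbers of peaks, with a minimum width of 200 bp and within 2 kb of gene ends.

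Alpha subunits had no gained and no lost region when overlapping peaks were merged. Itga9 had a gained one when peaks up to 500 bp apart were merged as well. The 4 collagen-binding subunits, Itga1, Itga2, Itga10 and Itga11, had 3 to 8 regions each, with 20 and 14 of their 23 regions called in Dicer1S2D tumours and 19 and 16 in KrasLA1 tumours. The 3 laminin-binding subunits, Itga3, Itga6 and Itga7, had 4 to 10 regions each, of which 19 and 9 were called in Dicer1S2D tumours and 14 and 16 in KrasLA1 tumours. Itga3, which pairs with beta 1 and binds laminins of epithelial basement membrane, had 2948 and 2796 covered bp in Dicer1S2D tumours, against 3180 and 3670 bp in KrasLA1 tumours. Both values were lower in Dicer1S2D tumours, with a difference of -553 bp between the means, which was -308 bp without KrasLA1 replicate 2, -289 bp over the gene body alone and -214 bp within 2 kb of gene ends. The widest of its 4 regions, 2047 bp, lies over the promoter of the neighbouring gene Pdk2, and its own promoter was 937 and 978 bp wide in Dicer1S2D tumours and 1037 and 960 bp wide in KrasLA1 tumours, which overlap.

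Among the 4 alpha subunits that bind the RGD motif of fibronectin and vitronectin, Itga2b, the platelet subunit, had 2123 and 1467 covered bp in Dicer1S2D tumours against 2433 and 2566 bp in KrasLA1 tumours. The difference of the means, -704.5 bp, was the largest in these data of the 6 members whose 2 Dicer1S2D values were both lower, a pattern that 27.7% of all genes met. It was -376.5 bp without Dicer1S2D replicate 2, where Itga3 was at -477 bp, -317 bp over the gene body alone, where Itgb4 was at -388 bp, and 0 bp within 2 kb of gene ends, so neither its size nor its rank held. Of its 5 regions, 3 lie in the neighbouring gene Fam171a2, and its promoter window had no peak in any library. Itga8, the alpha 8 subunit of mesenchymal cells, had 1 region, at its promoter, with a peak of 427 bp in KrasLA1 replicate 1 alone. That window, on the minus strand, is printed because no other region of the gene was open, and it held no match to the 6 capitalised motifs.
Itga8, chr2:12301895-12302194: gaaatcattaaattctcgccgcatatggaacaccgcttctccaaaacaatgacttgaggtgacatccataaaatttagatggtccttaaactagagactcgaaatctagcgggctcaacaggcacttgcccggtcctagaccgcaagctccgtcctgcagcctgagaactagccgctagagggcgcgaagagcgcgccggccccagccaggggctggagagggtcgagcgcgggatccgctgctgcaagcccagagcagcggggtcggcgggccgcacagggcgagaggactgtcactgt
The peak covered 168 of its 300 bases, and its CpG ratio was 0.882. Itga5, the classical fibronectin receptor subunit, had a region just inside the gene that was open in every tumour and touched the promoter window, by 1 base, in Dicer1S2D replicate 2 alone. Its peaks were 561 and 494 bp wide in Dicer1S2D tumours and 462 and 770 bp wide in KrasLA1 tumours, and these values overlap.

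Itga9, whose product pairs with beta 1 and binds tenascin, had 21 regions over 294295 bp and the widest spread between mice. Its covered bases were 7886 and 7399 bp in Dicer1S2D tumours, against 5872 and 12956 bp in KrasLA1 tumours, with 17 and 17 peaks against 10 and 19. The Dicer1S2D tumours lay between the KrasLA1 tumours. The only promoter window of Itga9 in the table lies at an internal start, base 118711692, and had no peak in any library. The region chr9:118606326-118607294 spans the annotated start of the gene, base 118606709 on the plus strand. It was narrower in both Dicer1S2D tumours, with 547 and 399 bp, than in KrasLA1 tumours, with 939 and 935 bp. The log2 difference of that region was -0.84 ± 0.24 (SE, n = 2 each), with an adjusted p of 0.999 in limma's test.

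The leukocyte alpha subunits had the fewest regions, 8 over 5 genes. Itgax, which encodes CD11c of dendritic cells and macrophages, had 0 peaks in all 4 libraries, and Itgal, the alpha subunit of LFA-1, had none open in all 4. Across the 5 genes, 5 and 5 regions were called in Dicer1S2D tumours and 6 and 7 in KrasLA1 tumours. Of their 8 regions, 4 were open in all 4 tumours. At the ILK complex genes Ilk, Parva and Lims1, 14 of the 22 regions were open in all 4 tumours. There, 19 and 15 were called in Dicer1S2D tumours and 17 and 18 in KrasLA1 tumours.

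For the 34 genes as one family, the number of peaks was 172 and 116 in Dicer1S2D tumours, against 134 and 145 in KrasLA1 tumours. The means were 144 ± 39.6 and 139.5 ± 7.78 peaks (SD, n = 2 each), and the difference of 4.5 peaks was smaller than the spread between the Dicer1S2D mice (exact two-sided permutation test, p = 1). It was -23.5 without Dicer1S2D replicate 1, 32.5 without Dicer1S2D replicate 2 and -1 without KrasLA1 replicate 1. As a share of the autosomal peaks of each library, they made up 0.349% and 0.340% in Dicer1S2D tumours, with 95% Wilson intervals of 0.301 to 0.405% and 0.284 to 0.408%. The shares in KrasLA1 tumours were 0.328% and 0.332%, with intervals of 0.277 to 0.388% and 0.282 to 0.390%. All 4 intervals, which cover counting error only, overlap, although both Dicer1S2D shares were the higher ones (difference of 0.0148 percentage points, exact permutation p = 0.33).

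Peaks covered 82488 and 60471 bp of the family's loci in Dicer1S2D tumours, against 70914 and 84443 bp in KrasLA1 tumours. The means of 71479.5 ± 15568.4 and 77678.5 ± 9566.45 bp (SD, n = 2 each) differed by -6199 bp (exact permutation p = 0.667). Without Dicer1S2D replicate 2 the difference was 4809.5 bp and without KrasLA1 replicate 2 it was 565.5 bp, so its direction rested on single libraries. Per Mb of all autosomal peak length, the loci held 3368 and 3242 bp in Dicer1S2D tumours and 3179 and 3094 bp in KrasLA1 tumours, a difference of 168.6 bp in the other direction (exact permutation p = 0.33). Gene by gene, the mean of the covered bases was lower in Dicer1S2D tumours for 27 members and higher for 6, with a median difference of -188.5 bp. Over all genes with a region, 77.7% were lower, with a median of -162 bp.

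**Figure D4:**
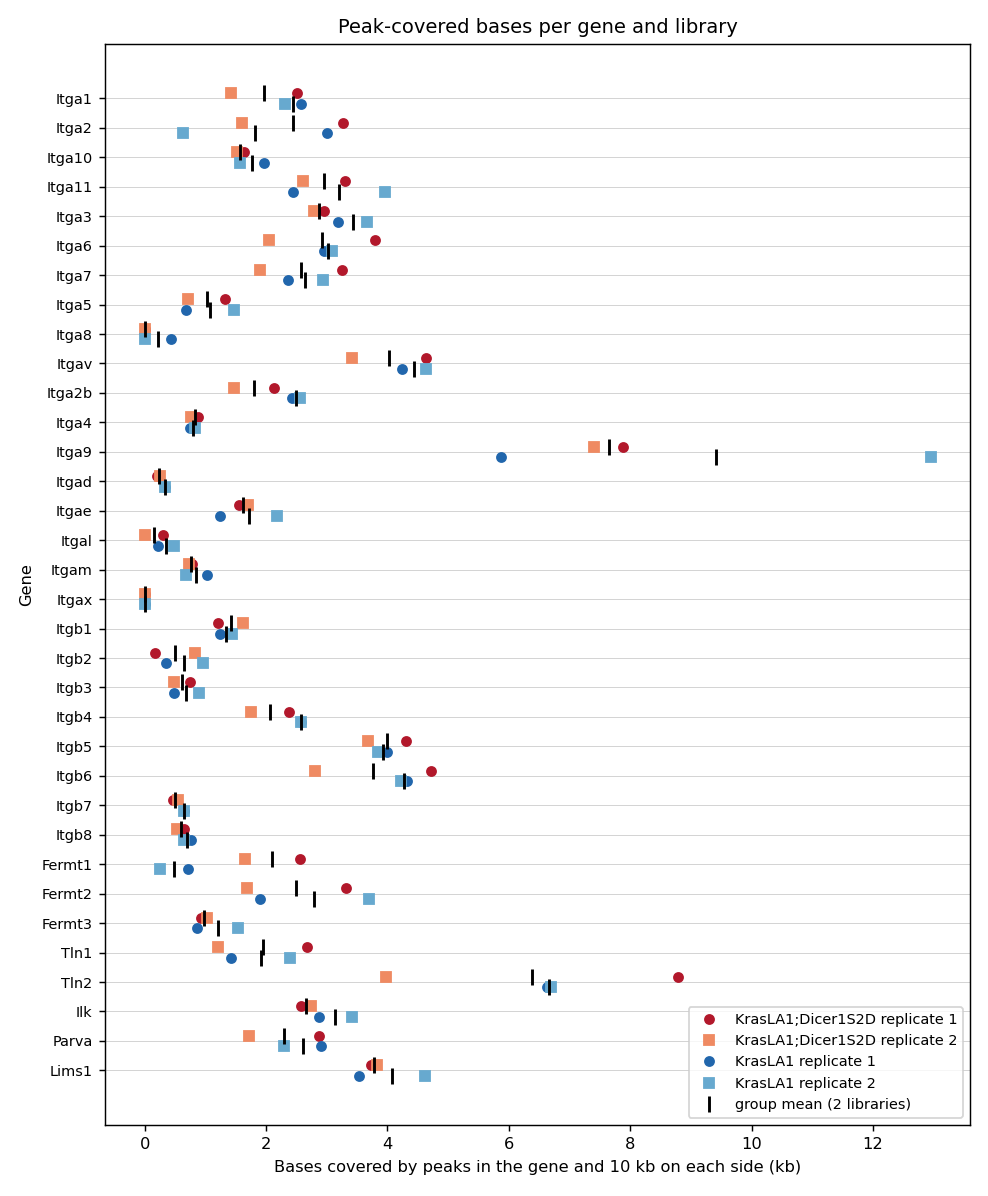
Bases covered by peaks in each gene and 10 kb on each side (x axis, kb), with Dicer1S2D libraries in red and orange above KrasLA1 libraries in blue within each row. Circles are replicate 1 (female), squares are replicate 2 (male), and black ticks are the means of 2 libraries. Fermt1 is the gene whose 2 Dicer1S2D points, 2560 and 1650 bp, both lie to the right of its KrasLA1 points, 713 and 258 bp.

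The 207 regions of the family were shared among libraries at rates close to those of the genome. They were called in all 4 libraries in 44.9% of cases and in 1 library in 28%, against 43.5% and 27.7% of all autosomal regions. By place, 16 of 19 regions over a member's own promoter window were open in all 4 tumours, against 60 of 153 elsewhere in the genes and 17 of 35 outside them. The promoter regions were also the widest, with a median of 1037 bp. The class elsewhere in the genes is not free of possible promoters. It includes regions over an annotated gene boundary at members without a promoter window, among them Itga6, Itgb3, Itgb4 and Parva. At least 1 region was found for 33 of the 34 genes, 30 of them had a region open in all 4 tumours, and the median was 4 regions per gene against 3 over all genes with a region. The members are long, with a median of 56398.5 bp against 21957 bp. Of the 24 members with a promoter window in the table, 13 were open there in all 4 libraries and 7 in none. Among those 7 is Itga9, whose window lies at an internal start. Over 16457 genes, 50.2% were open in all 4 and 42.4% in none. The farthest region counted lay 9999 bp from Itgb7 and the nearest one not counted lay 10041 bp from Itgal.

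Peak width in shared regions gave no call. Of 26402 regions open in all 4 libraries, limma on log2 width, centred on each library's median, called 0% at an adjusted p of 0.05. Without adjustment, 0.845% were wider and 2.07% were narrower at p under 0.05, and 3 of the 93 member regions were in either class. They belonged to Fermt1 and Itga9, given above, and to Itgb7, whose region chr15:102243404-102243744 lies in the neighbouring gene Rarg at the limit of the 10 kb margin. It had 283 and 274 bp in Dicer1S2D tumours and 180 and 238 bp in KrasLA1 tumours, which do not overlap (log2 difference 0.59, limma adjusted p = 0.999). The region next to that of Itga9 by p in the narrower direction was in Itga2b, at chr11:102466756-102467835, with 590 and 589 bp in Dicer1S2D tumours and 881 and 895 bp in KrasLA1 tumours (log2 difference -0.43, limma adjusted p = 0.999). Of the 93 member regions, 60 were wider and 33 narrower in Dicer1S2D tumours, with a median log2 difference of 0.07 against 0.04 over all regions. Without the centring, the median over all regions was -0.13, and 29 member regions were wider and 64 narrower.

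**Figure D5:**
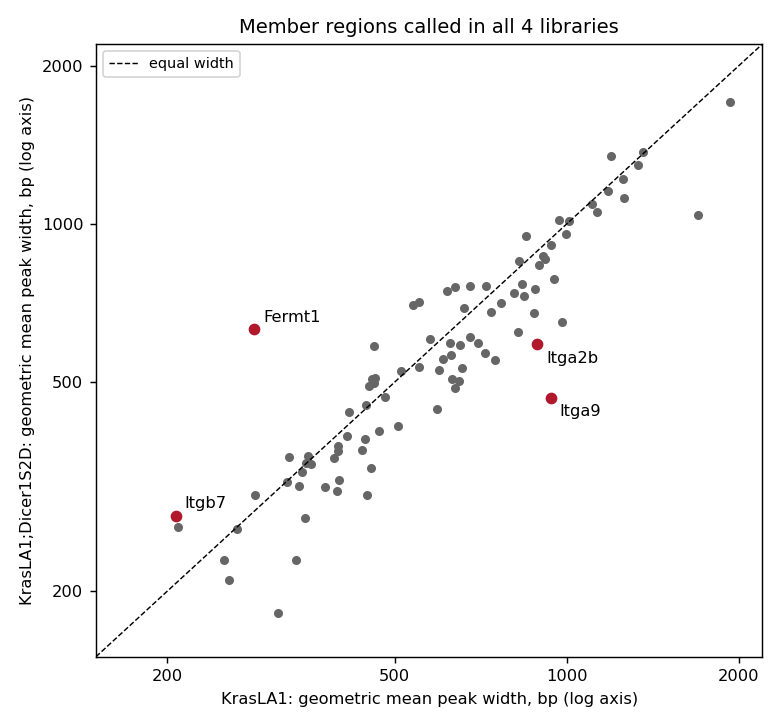
Peak width of the 93 regions of these genes that were open in all 4 tumours: the geometric mean of the 2 Dicer1S2D libraries (y axis, bp, log scale) against that of the 2 KrasLA1 libraries (x axis, bp, log scale), before centring. The dashed line marks equal width. The Fermt1 region stands farthest above the line, and the named regions of Itga9 and Itga2b lie below it.

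The further genes of the pathway were counted in the same way. Of 29 focal adhesion and integrin activation genes, all with a region, 0 had a gained region and 6 had a lost one, where 1.78% and 4.87% of all genes did. Those shares are not matched for the number of regions. The 6 genes had 7 to 23 regions each, against a median of 3 over all genes with a region. Among the 115 genes with 20 to 28 regions, as Nedd9 and Tns1 have, 34.8% had a lost region. Nedd9, a scaffold of the Cas family, had 3 lost regions, the widest with no peak in Dicer1S2D tumours and peaks of 481 and 585 bp in KrasLA1 tumours. The alpha-actinin gene Actn1, whose product crosslinks actin, had a lost region of 788 bp, and Rap1a, a GTPase that recruits talin, had one of 763 bp. Dock1, an activator of Rac, and Tns1, a tensin that binds beta subunit tails, had lost regions of 566 and 407 bp. With 1 library left out, under the weaker rule this implies, 1 to 11 of the 29 had a gained region and 7 to 14 a lost one, and with the other processing choices 0 to 2 had a gained region and 0 to 6 a lost one. Of 30 integrin ligand genes, 27 had a region and 3, Col1a2, Vcam1 and Postn, had none. Lama5, a laminin chain of alveolar basement membrane, was the gained one, 9093 bp outside the gene, with 211 and 194 bp in Dicer1S2D tumours and no peak in KrasLA1 tumours. Cdh1, which encodes E-cadherin, the ligand of alpha E beta 7, and Col4a1, a basement membrane collagen, had lost regions of 462 and 191 bp. With 1 library left out, 1 to 11 of the 30 had a gained region and 4 to 12 a lost one, and with the other choices 0 to 2 had either.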

How the data were processed

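Chromatin of 4 lung tumours was measured by ATAC-seq, and the deposited table holds 5 tracks of intervals on mm10, per the file headers: peaks of each library, called separately, and merged regions. Per the submitters' processing notes, the tools included BWA (version 0.7.12), MACS3 (version 3.0.0) and deepTools (version 3.5.1), listed without the role of each. The sources used here give no threshold, filter, transposase shift or read number. An interval consists of a position and a name without count or score, so a missing peak is one that missed an unknown threshold, and a library with fewer reads may hold fewer peaks with the same chromatin. Column 4, the interval name, gave the library, 0 columns belonged to other samples, and the signal tracks were not used here.

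Peaks that overlapped by 1 bp or more were merged on 19 autosomes, which gave the authors' merged regions. Gene positions came from RefSeq for GRCm38.p6, all 34 symbols matched, and promoter windows came from the RefSeq promoter table, which held one for 24 of them. Exons and introns were not annotated. Differences between group means of 2 libraries were tested by exact permutation, two-sided, whose smallest p is 0.33. limma 3.58.1 in R 4.3.3 tested log2 summed peak width, centred on the library median, with Benjamini-Hochberg adjustment over 26402 regions. The labels do not say that replicates came from separate litters or days, and p-values measure the spread between these 4 mice. Python 3.11.15, numpy 2.4.6, pandas 2.3.3, scipy 1.17.1 and matplotlib 3.10.9 were used.

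On simulated data with 200 planted regions among 26402, the width test recovered 52.5% of regions changed by 1 on the log2 scale and 100% of those changed by 2 when the spread was equal in all regions. That spread was 0.25, and 8 and 7 unchanged regions were called. The test recovered 0% of either when each region had its own spread, as estimated from 2 libraries per group. Such estimates are themselves uncertain, so the 0% does not measure the power in the real libraries. The count of 0 in the real libraries is to be read beside both settings.

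The genes, the lists of focal adhesion genes, ligands and cell markers, and the tests were chosen with earlier results of these data known, and the values of 1 marker are not reported here. The genes named with values were those with a gained or lost region, the 3 per direction with the largest difference in covered bases without overlap, the 3 with the most regions, those with 0 regions, the 2 shared regions per direction with the smallest p, and those with a promoter window called in some libraries but not all 4. From the pathway lists, up to 5 genes per list and direction were named, by the width of the gained or lost region. Alternatives covered the overlap that merges peaks, the widest 75% of peaks, equal numbers of peaks, a minimum width of 200 bp, the gene body alone, 2 kb around gene ends, width without centring or with 1 peak per region, a block for replicate number, and leaving out 1 library at a time.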

Additional observations from a re-analysis of the deposited data

Results flagged for a closer look

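In 8 results the female pair and the male pair differed in opposite directions. The screen covered the family's peak number, peak share and covered bases, and the covered bases of the 13 members named by the rules above. The other members were not screened, so the genes below are not a complete list for the family. Each difference below sets 1 Dicer1S2D library against 1 KrasLA1 library of the same sex, so it has no replicate check, and the difference between the sexes was not tested. Sex and replicate number are the same division of these libraries, and the total of autosomal peaks had the same signs, with 8379 more peaks in the Dicer1S2D female than in the KrasLA1 female and a difference of -9583 peaks in males. The part of that total in the results was not tested.

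Across the 34 genes the difference in peaks was 38 in females and -29 in males, and the difference in covered bases was 11574 bp in females and -23972 bp in males. Itga9 had 2014 bp more in the Dicer1S2D female, and -5557 bp as the male difference. For Tln2 the differences were 2153 bp in females and -2716 bp in males. For Itgb6 they were 389 bp in females and -1430 bp in males, and for Itga5 645 bp in females and -752 bp in males. For Itgb5 they were 317 bp in females and -175 bp in males, and for Fermt3 57 bp in females and -503 bp in males. Fermt1 was not in this group, since both of its pairs were higher in the Dicer1S2D mouse.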

How the results depend on the processing

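The gained and lost counts moved with most processing choices, while the count of shared regions that differed in width was 0 under all settings run. Among the 34 genes, gained genes numbered 2 and lost genes 1, in 4 and 1 regions. With gaps of up to 500 bp merged, 3 genes in 5 regions were gained, with Itga9 as the added gene. With the widest 75% of peaks, 1 gene in 1 region was gained. There, 3 genes in 3 regions were lost, namely Fermt2, Fermt3 and Itgb5. Equal numbers of peaks and a minimum width of 200 bp each gave 2 lost genes in 2 regions. These were Fermt2 and Fermt3 in the first case, and Fermt3 and Parva in the second. Equal numbers of peaks also gave 3 gained genes in 4 regions, with Fermt2 as the added gene. Within 2 kb of gene ends, 1 gene in 1 region was gained and 0 were lost. Leaving out 1 library gave 3 to 18 gained genes in 5 to 32 regions and 3 to 13 lost genes in 3 to 17 regions, by the weaker rule this implies. The difference in peaks, 4.5, was -0.5 with the widest 75% of peaks, -1.5 within 2 kb of gene ends, and -23.5 to 32.5 with 1 library left out. The difference in share, 0.0148 percentage points, was -0.000845 within 2 kb of gene ends. The difference in covered bases, -6199 bp, was -17207.5 to 4809.5 bp with 1 library left out and 168.6 bp per Mb of peaks, a scaling chosen after seeing the data. The causes were not tested. Of 135 recomputed differences in covered bases or peak width of single genes, 10 had another sign, none of them in width. They were of 6 genes whose groups overlap: Itgb5 (71 bp) was at -352, -66, -248 and -2 bp with the widest 75% of peaks, within 2 kb of gene ends, without Dicer1S2D replicate 1 and without KrasLA1 replicate 2. Without Dicer1S2D replicate 2, Tln2 (-281.5 bp) was at 2119 bp, Itgb6 (-520.5 bp) at 436.5 bp and Itga5 (-53.5 bp) at 247.5 bp. Without KrasLA1 replicate 2, Itga9 (-1771.5 bp) was at 1770.5 bp, Itga5 at 344 bp and Fermt3 (-223 bp) at 112 bp.

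Replicate numbers do not pair these mice in the labels, and the log2 width differences of replicate 1 minus 2 in the 2 groups correlated at 0.120 over 26402 regions. With the replicate block, limma called 0 regions, and the adjusted p of the shared Fermt1 region was 0.524. For the gained and lost counts, no paired analysis was possible because they come from no test. Unknown read depth limits every absent peak.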

Other observations

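Some open chromatin counted for these genes sits at promoters of their neighbours. Of the 207 regions, 16 overlapped the RefSeq promoter window of another gene, among them those of Pdk2 near Itga3, Galk1 near Itgb4, Dnajc4, Nudt22 and Trpt1 near Fermt3, and Gm14102 at Fermt1. A region of 449 bp over the windows of Nudt22 and Trpt1 had peaks of 196 and 0 bp in Dicer1S2D tumours and 400 and 372 bp in KrasLA1 tumours, and its groups do not overlap. The region over the Dnajc4 window went the other way, with 728 and 694 bp in Dicer1S2D tumours against 467 and 649 bp in KrasLA1 tumours (log2 difference 0.53 after centring, limma adjusted p = 0.999). These genes were named after their values were seen.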
